A study of Homo sapiens with 6 samples.

Results

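Gap junctions and pannexin channels were examined through 7 genes of the epidermis: the connexin genes GJA1, GJB2, GJB5, GJB6 and GJC1 and the pannexin genes PANX1 and PANX2. The members were chosen by name, with earlier results of these data known. Each had 1 probe set that the platform annotation assigns to that gene alone. They are 7 of the 18404 genes tested. Messenger RNA was measured on 6 one-colour arrays of HaCaT, an established line of spontaneously immortalised human keratinocytes. All samples were infected with lentivirus and collected after 72 hours. In 3 samples (shTP63) the virus carried a short hairpin RNA against TP63, the gene of the epithelial transcription factor p63, and the other 3 (shControl) received the control vector. All came from this one line, grown with serum in one of several media, and the hairpin sequence is not given in the sources used here. TP63 itself was not analysed, so the direction of each difference rests on the sample labels. Whether replicates came from separate cultures is not stated in the labels, and the p-values reflect only the variation among these arrays, possibly of technical origin.

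Connexins assemble into hemichannels in the plasma membrane, and hemichannels of neighbouring cells dock to form gap junctions, through which ions, calcium signals and small metabolites pass from cell to cell. Pannexins form related large-pore channels that do not usually dock and are best known for releasing ATP, which then acts on purinergic receptors. In epidermis the connexins are expressed in layers, GJA1 broadly, while GJB2 is low in resting skin and prominent at wound edges and in psoriasis. Inherited variants of GJB2, GJB6 and GJA1 cause skin disorders, several of them with deafness.

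Of the 7 genes, 4 rose in shTP63 and 0 fell. GJB2, GJC1, GJA1 and PANX1 were 1.43-fold to 1.74-fold higher, whereas GJB6, PANX2 and GJB5 did not pass the test. The test was limma's moderated test on log2 intensity at a Benjamini-Hochberg adjusted p of 0.05 across all genes tested. By this rule 41.5% of all genes were called, 16.4% as higher and 25.1% as lower. The 3 values of each group did not overlap for the 4 called members, against 51.4% of all genes. The median difference of the 7 members was 0.52 on the log2 scale and that of all genes -0.01. In size, the difference of GJB2 ranked 292 of 18404, that of GJC1 352, that of GJA1 597 and that of PANX1 1173.

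Promoter sequences from RefSeq (GRCh38.p14) were at hand for 4 of the 7 genes, and the 250 bases before the annotated start are shown because 3 of these genes rose and GJB6 did not. They run 5′ to 3′ on the gene's strand, and capitals mark matches to the motifs searched.
GJA1: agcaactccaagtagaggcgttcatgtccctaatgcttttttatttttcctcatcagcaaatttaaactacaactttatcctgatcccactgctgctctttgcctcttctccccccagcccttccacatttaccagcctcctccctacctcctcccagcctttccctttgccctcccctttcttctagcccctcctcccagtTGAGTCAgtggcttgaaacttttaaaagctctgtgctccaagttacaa
GJB2: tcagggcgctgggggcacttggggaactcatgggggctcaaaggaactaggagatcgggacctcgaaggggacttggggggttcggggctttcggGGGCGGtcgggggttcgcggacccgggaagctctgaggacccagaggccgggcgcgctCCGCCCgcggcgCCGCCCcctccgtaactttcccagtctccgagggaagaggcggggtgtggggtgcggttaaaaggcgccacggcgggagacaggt
GJB6: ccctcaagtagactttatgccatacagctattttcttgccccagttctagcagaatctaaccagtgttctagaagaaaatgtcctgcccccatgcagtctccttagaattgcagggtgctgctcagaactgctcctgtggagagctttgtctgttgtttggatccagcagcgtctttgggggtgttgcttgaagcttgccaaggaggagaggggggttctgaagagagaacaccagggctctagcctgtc
PANX1: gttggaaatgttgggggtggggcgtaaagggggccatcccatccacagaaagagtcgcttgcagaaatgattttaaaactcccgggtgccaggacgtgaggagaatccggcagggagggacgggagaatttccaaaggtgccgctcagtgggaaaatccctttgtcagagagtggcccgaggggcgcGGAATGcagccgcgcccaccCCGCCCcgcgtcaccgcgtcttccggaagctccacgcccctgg

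These windows lie at chr6:121435396-121435645 on the plus strand for GJA1, chr13:20192939-20193188 on the minus strand for GJB2, chr13:20230979-20231228 on the minus strand for GJB6 and chr11:94128591-94128840 on the plus strand for PANX1. The motifs were searched on both strands: the AP-1 site TGANTCA, the GC box GGGCGG, the TEAD core GGAATG and the p53-family half-site RRRCWWGYYY. The last, where R is A or G, W is A or T and Y is C or T, is only a part of the element that p63 binds. No matches to different motifs overlapped. GJA1 held 1 AP-1 match, 48 bases before the start, and 6.57% of the 35116 promoter windows of this length hold at least 1. GJB2 held 3 GC boxes, which begin 155, 97 and 85 bases before the start, and PANX1 held 1, at 43 bases, against 42.6% of windows with at least 1. PANX1 also held 1 TEAD core, 63 bases before the start (11.9% of windows). GJB6 held no match to any of the 4 motifs, and none of the 4 windows held the p53-family half-site, which is in 5.57% of windows. The neighbouring genes GJB2 and GJB6 differ in base composition here: the GJB2 window is 70.0% G or C with 25 CpG dinucleotides, the GJB6 window 50.8% with 1, and the median window 58.0% with 11. GJA1 (48.0%, 1 CpG) resembled GJB6 in this respect and PANX1 (62.0%, 19 CpG) lay nearer to GJB2, so the 3 genes that rose had windows of both kinds.

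GJB2 encodes CX26, a connexin whose variants are a frequent cause of inherited deafness. Its log2 intensities were 8.67, 8.65 and 8.72 in shControl replicates 1 to 3 and 9.45, 9.47 and 9.52 in shTP63 replicates 1 to 3. Every shTP63 array was above every shControl array, with a gap of 0.73 between the groups. The mean rose from 8.68 ± 0.037 to 9.48 ± 0.035 (SD, n = 3), a difference of 0.80 ± 0.044 (SE; 95% interval 0.70 to 0.90), or 1.74-fold, with a limma adjusted p of 3.42e-06. On the linear scale this was an intensity of 410.3 ± 10.6 against 716 ± 17.4. It was the largest rise of any connexin or pannexin measured here, although under quantile normalization of all probe sets GJC1 came close to it (0.80 against 0.81).

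GJC1 encodes CX45, a connexin best known from the heart and vascular smooth muscle. Its values were 9.67, 9.70 and 9.72 in shControl and 10.37, 10.53 and 10.45 in shTP63. The groups did not overlap, and the shTP63 arrays were spread more widely than the controls. The mean rose from 9.69 ± 0.026 to 10.45 ± 0.083 (SD, n = 3), by 0.76 ± 0.052 (SE; 95% interval 0.64 to 0.87), or 1.69-fold (limma adjusted p = 1.05e-05).

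GJA1 encodes CX43, the most widely expressed connexin and one found through most of the living epidermis. It measured 8.36, 8.30 and 8.31 in shControl and 8.91, 8.96 and 9.04 in shTP63, again without overlap. The rise from 8.33 ± 0.033 to 8.97 ± 0.065 (SD, n = 3) was 0.64 ± 0.049 (SE; 95% interval 0.53 to 0.75), or 1.56-fold (limma adjusted p = 1.65e-05). As the sequence above shows, its window is the only one of the 4 with an AP-1 letter match.

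PANX1, the broadly expressed ATP-release channel that caspases open during apoptosis, measured 10.43, 10.44 and 10.45 in shControl and 10.85, 10.99 and 11.04 in shTP63. All shTP63 arrays were higher, with replicate 1 the nearest to the controls. The rise from 10.44 ± 0.011 to 10.96 ± 0.097 (SD, n = 3) was 0.52 ± 0.055 (SE; 95% interval 0.39 to 0.64), or 1.43-fold (limma adjusted p = 9.45e-05). Among the shTP63 arrays, replicate 1 gave the lowest value for each of the 4 genes that rose. Without it their differences were 0.67 for GJA1, 0.82 for GJB2, 0.80 for GJC1 and 0.57 for PANX1, and all 4 kept their calls.

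**Figure D1:**
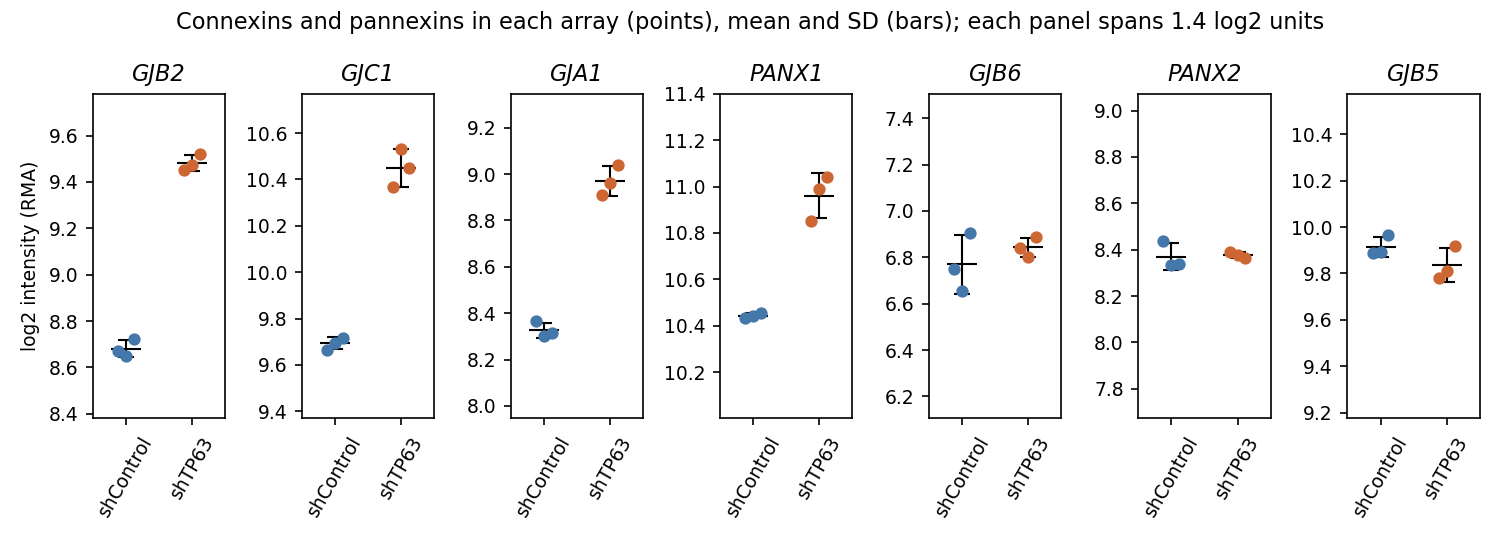
Log2 intensity (RMA) of each of the 7 genes in the 3 shControl and 3 shTP63 arrays; points are arrays and bars the mean and SD, and every panel spans the same range of log2 units around its own centre. The groups are apart for GJB2, GJC1, GJA1 and PANX1 and overlap for GJB6, PANX2 and GJB5.

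GJB6 encodes CX30, a close relative of CX26 that is strong in hair follicles and palm and sole skin. It measured 6.75, 6.65 and 6.91 in shControl and 6.84, 6.80 and 6.89 in shTP63, so the shTP63 values all lay within the range of the controls. The difference was 0.07 ± 0.065 (SE; 95% interval -0.08 to 0.22; limma adjusted p = 0.424). Its mean level of 6.81 was close to 6.76, the 95th percentile of 340 olfactory receptor genes, which served as a measure of background, and only 4 of its 6 values exceeded that. A change of GJB6 at this level would be compressed, so its interval bounds the change in signal and not necessarily in RNA.

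PANX2, a pannexin known mainly from neurons, measured 8.44, 8.33 and 8.34 in shControl and 8.39, 8.38 and 8.36 in shTP63. The groups overlapped, with a difference of 0.01 ± 0.046 (SE; 95% interval -0.10 to 0.11; limma adjusted p = 0.916). Its level was above the background measure on all 6 arrays, but so were some markers of other cell types. CDH5, from the immune and endothelial list, read 9.50 in shControl and 9.57 in shTP63. Exceeding the measure thus does not show that PANX2 RNA was detected. The interval for PANX2 excludes a rise in signal as large as the lower bound for PANX1, which is not necessarily a bound on RNA.

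GJB5 encodes CX31.1, a connexin of stratified epithelia. It measured 9.89, 9.89 and 9.97 in shControl and 9.78, 9.81 and 9.92 in shTP63. The groups overlapped, although the lowest values were those of shTP63 replicates 1 and 2. The difference was -0.08 ± 0.051 (SE; 95% interval -0.20 to 0.04; limma adjusted p = 0.264), and with each array centred on its median it fell by 0.19 and passed (limma adjusted p = 0.0147).

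The members thus split within both families, and the 95% intervals of the 4 genes that rose (lowest bound 0.39) lay above those of the other 3 (highest bound 0.22). Both sets of genes were formed from these same differences, so the gap between the intervals is not separate evidence of the split. For 2 pairs the split was measured as a log ratio within each array, which no array-wide shift can move. Each pair joins a gene that rose with one that did not pass, so the ratios largely restate the single-gene results. The log2 ratio of GJB2 to its neighbour GJB6 was 1.92, 1.99 and 1.81 in shControl and 2.61, 2.67 and 2.64 in shTP63, a difference of 0.73 ± 0.054 (SE). Because GJB6 lay near background, this value cannot separate a steady GJB6 from a compressed change, and it is close to the rise of GJB2 alone. The ratio of PANX1 to PANX2 was 1.99, 2.11 and 2.12 in shControl and 2.46, 2.61 and 2.68 in shTP63, a rise of 0.51 ± 0.075 (SE). Neither ratio overlapped between the groups. For the pannexins, both above the background measure on all 6 arrays, this shows unequal change in signal and not necessarily in RNA. An exact two-sided permutation test gave 0.10 for both ratios (0.10 adjusted over the 2 pairs) and for each of the 4 genes that rose, which is the smallest p that 3 against 3 arrays allow. It gave 0.30 for GJB5, 0.50 for GJB6 and 1 for PANX2.

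The levels of the members set a further context, since brighter genes were more often called in both directions, and most of all as lower in shTP63. When all genes were sorted into 5 equal bins of mean level, GJC1 and PANX1 lay in the brightest bin, where 25.3% of genes rose, 44% fell and the median difference was -0.10. GJB2 and GJB5 lay in the next bin, with 18.5% rising and 43% falling, and GJA1 and PANX2 in the middle bin, with 18% and 25.4%. GJB6 lay in the bin below that, with 13.7% rising and 8.67% falling. The split of all calls moved with the scaling: 60.5% were falls on the deposited scale, 81.7% when arrays were centred on their medians (median of all genes then -0.12) and 49.7% after cyclic loess. After that centring GJB2 was still higher by 0.70, GJC1 by 0.65, GJA1 by 0.54 and PANX1 by 0.41, and the members numbered 4 higher and 1 lower, the last being GJB5. After cyclic loess over the probe sets with 1 gene the same 4 differences were 0.89, 0.86, 0.70 and 0.61.

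**Figure D2:**
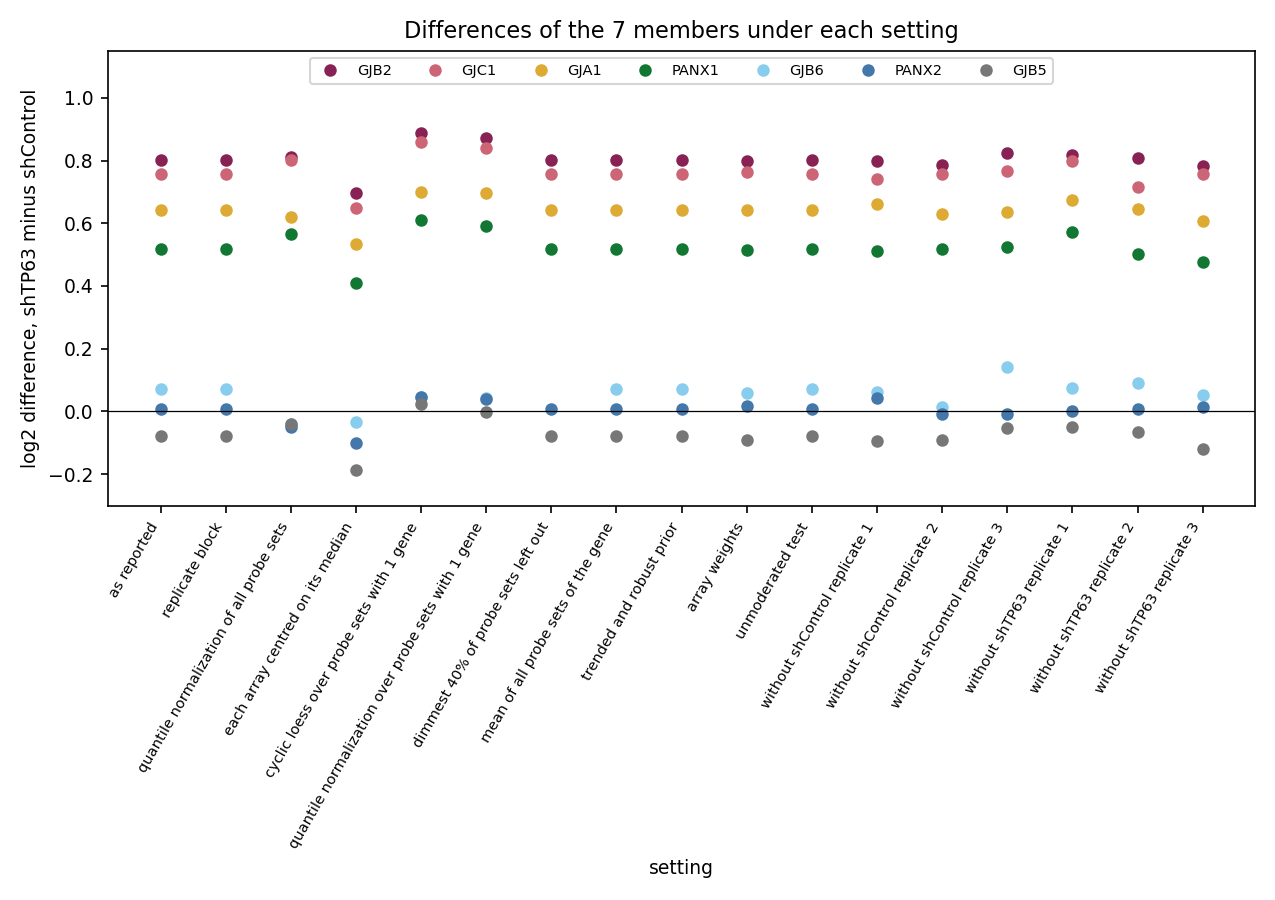
Log2 difference (shTP63 minus shControl) of the 7 genes, one colour each, as reported and under each alternative fit or scaling and with each array left out. GJB2, GJC1, GJA1 and PANX1 stay between 0.41 and 0.89, while GJB6, PANX2 and GJB5 lie between -0.19 and 0.14.

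Of 17 other connexins and pannexins, 11 had a probe set of their own. Of these 0 rose and 1 fell (9.09% called, against 41.5% of all genes). Their median difference was -0.00. Their mean levels exceeded the background measure in 5 of 11, and dimmer genes were called less often. In the dimmest of the 5 bins of mean level 6.36% of genes rose and 4.43% fell, and in the next 13.7% and 8.67%. The 41.5% is thus a high reference for this list. Its one call was PANX3, a pannexin of cartilage and bone that is also found in skin. PANX3 measured 6.28 ± 0.029 in shControl and 6.11 ± 0.106 in shTP63 (SD, n = 3). It fell by 0.17 (SE 0.058, limma adjusted p = 0.0442), with both groups below the background measure, and it lost the call in 9 of 16 alternatives, among them the fits without any 1 of 5 arrays. The liver and Schwann cell connexin GJB1 differed by 0.16 ± 0.070 (SE) and GJA10 by 0.12 ± 0.095, and neither passed (limma adjusted p = 0.106 and 0.360), although GJB1 passed without shTP63 replicate 1 (adjusted p = 0.0254) and GJA10 without shTP63 replicate 3 (adjusted p = 0.0471). GJB7 differed by -0.08 ± 0.040 and was far below the background measure, and it passed as lower in 3 of 16 alternatives.

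Of the brighter relatives, the lens connexin GJA3, which lies beside GJB2, differed by -0.03 ± 0.066 (SE) and the endothelial connexin GJA4 by -0.04 ± 0.063. GJD3 differed by -0.03 ± 0.051 and fell with each array centred on its median (-0.14, limma adjusted p = 0.0394). The neuronal connexin GJD2 differed by 0.02 ± 0.069 and GJD4 by 0.02 ± 0.064. The atrial and endothelial connexin GJA5 and the connexin GJC3 differed by -0.00 ± 0.062 and -0.00 ± 0.083, both at background levels. Beyond PANX3, none of the 11 passed on the deposited scale.

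**Figure D3:**
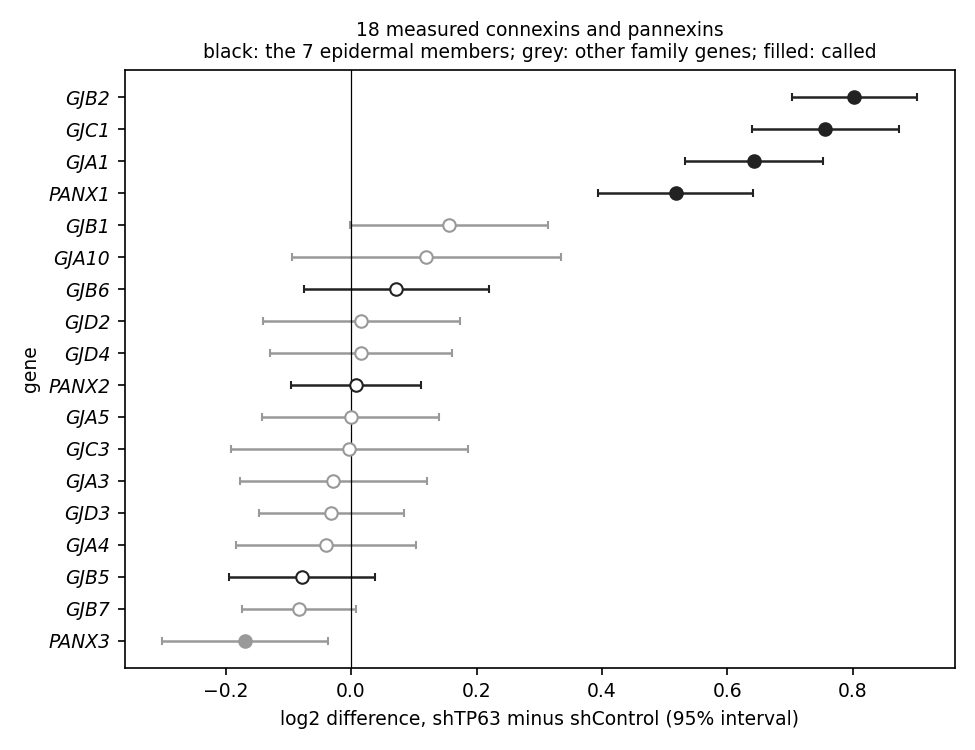
Log2 difference (shTP63 minus shControl) with its 95% interval for all 18 measured connexins and pannexins, the 7 epidermal members in black and the other 11 in grey, filled where called. The 4 filled black points, GJB2, GJC1, GJA1 and PANX1, stand above every other gene.

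The nearest tested genes on each side of the members in the RefSeq order shared no one direction with them. Next to GJB6 on its other side, CRYL1, a crystallin-like dehydrogenase, fell by 0.39 (SE 0.042, limma adjusted p = 0.000108), while GJB2 rose on the near side. SERINC1 beside GJA1 rose by 0.26 ± 0.044 (adjusted p = 0.00110) and TBC1D32 on its other side did not pass (0.16 ± 0.077, adjusted p = 0.125; it passed without shTP63 replicate 2). HEPHL1, a ferroxidase gene beside PANX1, rose by 0.75 ± 0.068 (adjusted p = 4.27e-05) at a level below the background measure, and IZUMO1R did not pass (0.07 ± 0.060). Beside PANX2, MOV10L1 rose by 0.32 ± 0.056 from below the same measure and TRABD did not pass (0.04 ± 0.043), except as higher under 2 of the other scalings. The neighbours of GJC1, ADAM11 (0.12 ± 0.061) and HIGD1B (-0.03 ± 0.071), and those of GJB5, C1orf94 (0.06 ± 0.063) and GJA4, did not pass.

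The gene whose values over the 6 arrays followed each member most closely, by Pearson correlation, was SLC44A4 for GJA1 (r = 0.9992), TNFRSF10B, a TRAIL death receptor, for GJB2 (r = 0.9996), HPSE, the heparan sulfate-cleaving heparanase, for GJC1 (r = 0.9996) and ABCA12, the keratinocyte lipid transporter, for PANX1 (r = 0.9996). These values describe 6 arrays in 2 groups and reflect the group difference: 366 genes had r over 0.99 with GJB2, 317 with GJC1, 281 with GJA1 and 230 with PANX1. For the members that did not pass they were ZC3H7B for GJB5 (r = 0.995), ULK4 for GJB6 (r = 0.991) and MYH13 for PANX2 (r = 0.988).

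Of 33 listed genes whose proteins anchor, phosphorylate, traffic or degrade connexins, 30 were measured, as messenger RNA. Of the 30, 6 rose and 10 fell (53.3% called, against 41.5% of all genes). All 30 exceeded the background measure, and brighter genes were called more often. In the brightest of the 5 bins of mean level 25.3% rose and 44% fell, and in the next 18.5% and 43%. The 41.5% is thus a low reference for this list. The median difference of the 30 was -0.08. The split moved to 3 higher and 21 lower with each array centred on its median and to 6 and 6 after cyclic loess. DBN1 encodes drebrin, an actin-binding protein that holds CX43 at the membrane, and it rose from 8.58 ± 0.080 to 9.41 ± 0.078 (SD, n = 3), by 0.84 ± 0.058 (SE, limma adjusted p = 1.14e-05), or 1.79-fold. No other gene of this list differed by as much. PRKCD, a protein kinase C, fell by 0.43 (SE 0.044, adjusted p = 7.96e-05), and TSG101, an endosomal sorting protein that takes part in CX43 degradation, fell by 0.42 (SE 0.044, adjusted p = 9.29e-05).

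The following genes of that list were named after their values were seen. TJP1, which encodes the scaffold ZO-1 that binds the tail of CX43, did not pass (-0.06 ± 0.046 SE, adjusted p = 0.370), except with each array centred on its median, when it fell by 0.16 (adjusted p = 0.0166). The adhesion gene CDH1, E-cadherin, rose by 0.29 ± 0.042 (adjusted p = 0.000500) and CTNNB1, beta-catenin, by 0.20 ± 0.049 (adjusted p = 0.0101), a call lost after that centring (0.09, adjusted p = 0.181). Of the 4 ubiquitin ligase genes in the list, NEDD4 rose by 0.33 ± 0.051 (adjusted p = 0.000739) and WWP1 fell by 0.21 (SE 0.047, adjusted p = 0.00562; -0.13, adjusted p = 0.0573 after cyclic loess). TRIM21 fell by 0.17 (SE 0.049, adjusted p = 0.0204), a call lost in 7 of 17 alternatives, among them the fits without shControl replicate 2 (adjusted p = 0.0501), shControl replicate 3 (0.0854) and shTP63 replicate 2 (0.0671). SMURF2 did not pass (-0.04 ± 0.041, adjusted p = 0.483), except with each array centred on its median (-0.15, adjusted p = 0.0201). RAB20, a small GTPase of connexin trafficking, fell by 0.33 (SE 0.063, adjusted p = 0.00239).

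ATP and adenosine signalling lies downstream of pannexin and connexin hemichannels, and 22 of its 29 listed genes were measured. Among these 8 rose and 1 fell. Of the 22, 40.9% were called, against 41.5% of all genes (16.4% rose, 25.1% fell), and their median difference was 0.07. With each array centred on its median 4 rose and 4 fell. P2RY6, a receptor for UDP, rose from 7.78 ± 0.091 to 8.48 ± 0.030 (SD, n = 3), by 0.69 ± 0.054 (SE, limma adjusted p = 1.96e-05), or 1.62-fold. The adenosine receptor ADORA2B rose by 0.29 ± 0.054 (adjusted p = 0.00224) and ADA, which deaminates adenosine, by 0.27 ± 0.047 (adjusted p = 0.00154). The one fall was that of ENTPD3, an ectonucleotidase that hydrolyses ATP, which fell by 0.12 (SE 0.042, adjusted p = 0.0415) and lost its call in 10 of 17 alternatives, among them the fits without any 1 of 5 arrays.

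Named after their values were seen, the ATP-gated channel P2RX4 rose by 0.46 ± 0.094 (SE, limma adjusted p = 0.00371), a call lost in the unmoderated test (adjusted p = 0.0606). The ATP and UTP receptor of keratinocytes P2RY2 rose by 0.18 ± 0.050 (adjusted p = 0.0169), but did not pass when shControl replicate 2 was left out (adjusted p = 0.0601) or with each array centred on its median (0.07, adjusted p = 0.262). P2RX7, the ATP receptor most often described together with PANX1, differed by -0.19 ± 0.075 and did not pass (adjusted p = 0.0694). It lay below the background measure and passed as lower under 4 of 4 other scalings (adjusted p from 0.00436 to 0.0315) and without shTP63 replicate 2.

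The 11 other large-pore channel genes were the LRRC8 subunits of volume-regulated anion channels, which resemble pannexins in sequence, and the CALHM channels. Among them 4 rose and 0 fell (3 and 1 with each array centred on its median, 6 and 0 after cyclic loess). In this list 36.4% were called, against 41.5% of all genes (16.4% rose, 25.1% fell). LRRC8B rose by 0.41 ± 0.042 (SE, limma adjusted p = 8.54e-05) and LRRC8C by 0.32 ± 0.050 (adjusted p = 0.000889). CALHM2 rose by 0.32 ± 0.071 (adjusted p = 0.00606; 0.0614 in the unmoderated test). LRRC8E rose by 0.21 ± 0.050 (adjusted p = 0.00792), a call lost with each array centred on its median (0.11, adjusted p = 0.107) and under quantile normalization of all probe sets (0.12, adjusted p = 0.0750). The obligatory subunit LRRC8A, named after its value was seen, did not pass (0.07 ± 0.046, adjusted p = 0.262) except after cyclic loess (0.15, adjusted p = 0.0277). The rise of PANX1, by 0.52, exceeded each of these in size.

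**Figure D4:**
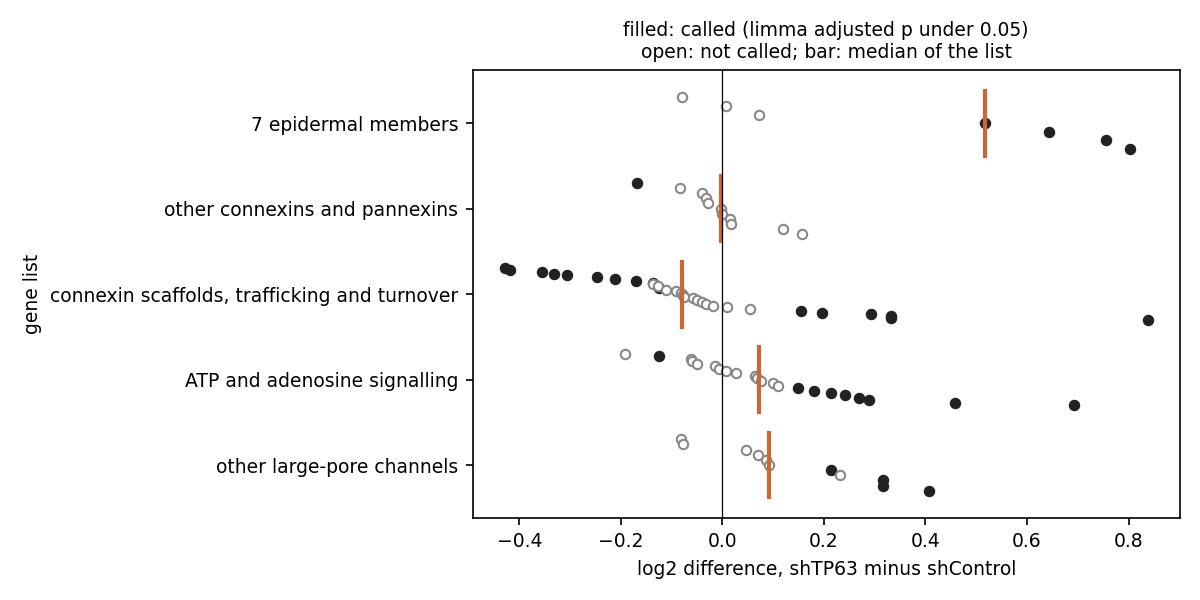
Log2 difference (shTP63 minus shControl) of every measured gene in 5 lists, filled where called and open where not; the vertical bar is the list's median. The 7 members have a median of 0.52, the other connexins and pannexins -0.00, scaffolds and turnover genes -0.08, ATP and adenosine genes 0.07 and other large-pore channels 0.09.

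Genes that rise with GJB2 at wound edges and in psoriasis formed a further list, chosen with earlier results of these data known. Of its 16 genes 11 were measured, and 7 rose, 0 fell and 4 did not pass. Of all genes, 16.4% rose and 25.1% fell. The median difference of the 11 was 1.14. The calprotectin subunits S100A8 and S100A9 rose by 1.94 ± 0.081 and 1.16 ± 0.049 (SE, limma adjusted p = 8.77e-07 and 8.39e-07) and PI3, the elastase inhibitor elafin, by 1.59 ± 0.095 (adjusted p = 5.17e-06). The hyperproliferation keratin KRT16, named after its value was seen, differed by -0.12 ± 0.047 and did not pass (adjusted p = 0.0755), although it passed as lower in 4 of 17 alternatives.

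Cell identity was checked on marker lists. All 14 measured keratinocyte markers exceeded the background measure. Their summed linear intensity was 73198 to 75572 in shControl and 60524 to 61726 in shTP63. Of the 14, 2 were higher and 8 lower (71.4% called, against 41.5% of all genes). Most of the 14 were bright, and in the brightest of the 5 bins of mean level 25.3% of genes rose and 44% fell. The 41.5% is thus a low reference for this list. Among the lower markers, the envelope precursor gene IVL fell by 1.04 (SE 0.044, limma adjusted p = 8.85e-07) and the keratin gene KRT15 by 0.91 (SE 0.047, adjusted p = 2.50e-06). SFN, which encodes stratifin, fell by 0.60 (SE 0.042, adjusted p = 1.19e-05). The rises were those of LAMB3, a basement membrane laminin chain, by 0.33 ± 0.042 (adjusted p = 0.000287) and the hemidesmosome integrin ITGB4 by 0.21 ± 0.045 (adjusted p = 0.00432), the latter lost with each array centred on its median (adjusted p = 0.0916). Of 10 fibroblast markers 5 exceeded the background measure, and the sum was 1295 to 1342 in shControl and 1394 to 1470 in shTP63. In that list 3 rose and 1 fell (2 and 2 with each array centred on its median), or 40% called. Among these 4, FAP, FBN1 and DCN lay below the background measure in both groups. Only COL1A1, which rose by 0.18 ± 0.047 (adjusted p = 0.0134), was above it, and it no longer passed after that centring or when shControl replicate 3 was left out (adjusted p = 0.0603). DCN fell by 0.26 (SE 0.084, adjusted p = 0.0371) and lost its call in 7 of 16 alternatives, among them the fits without any 1 of 4 arrays.

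Of 6 melanocyte markers 3 exceeded the background measure, with a sum of 799 to 811 in shControl and 826 to 858 in shTP63. PMEL, a melanosome protein gene, rose from 6.94 to 7.19, by 0.25 ± 0.050 (SE, limma adjusted p = 0.00349), a call lost with each array centred on its median (adjusted p = 0.0528) and under quantile normalization of all probe sets (adjusted p = 0.0739). Under both of those scalings 0 of the 6 rose and 1, TYR, fell. The regulators SOX10 and MITF, named after their values were seen, also lay above the background measure and did not pass (0.04 and 0.03). TYRP1 and TYR lay below it and did not pass on the deposited scale, though TYRP1 passed without shTP63 replicate 2 (adjusted p = 0.00397). In the immune and endothelial list 3 of 10 markers exceeded the background measure, and the sum was 1379 to 1451 against 1434 to 1489. Its one call was VWF, which fell by 0.18 (SE 0.048, adjusted p = 0.0135) below the background measure and lost the call without shControl replicate 3 (adjusted p = 0.0558). CD3E and KDR lay below it too and did not pass, though CD3E passed in 3 of 16 alternatives, among them the fits without shControl replicate 1 (adjusted p = 0.0455) and without shTP63 replicate 3 (adjusted p = 0.00865). The part of these shifts in the connexin and pannexin differences was not tested, and in RNA from whole cultures a change in the kinds of cells present and a change per cell cannot be told apart.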

How the data were processed

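Per the submitters' processing notes, the authors made the deposited values with RMA in R 2.15.1, which corrects background, normalizes between arrays and summarises probe sets. The intensities deposited for 32321 probe sets are linear, and log2 was taken of them here. Array medians were 7.44 to 7.57 and arrays of one group correlated at 0.996 to 0.998 over all probe sets. The platform annotation gave 19158 probe sets 1 gene. For each of 18404 genes the probe set with the highest mean was used. Groups came from the sample titles. The test used limma 3.58.1 under R 4.3.3, with lmFit and eBayes, no covariate and p-values adjusted over all genes by Benjamini-Hochberg (threshold 0.05), and was checked on simulated data. Arrays give no counts, so their number (3 per group) limits the precision, with a median SE of 0.053. Named were the 7 members, every other measured connexin or pannexin, up to 3 genes with the smallest adjusted p per further list, all of a direction with 5 or fewer calls, RefSeq neighbours and the most correlated gene, and others marked as named later. The members, lists and background measure were chosen with earlier results of these data known. Alternatives were other scalings, filters, priors, weights and array subsets.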

Additional observations from a re-analysis of the deposited data

How the results depend on the processing

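GJB2, GJC1, GJA1 and PANX1 kept their direction and their calls in all 17 alternatives, with differences of 0.70 to 0.89 for GJB2, 0.65 to 0.86 for GJC1, 0.54 to 0.70 for GJA1 and 0.41 to 0.61 for PANX1, and adjusted p up to 0.00631, for PANX1 in the unmoderated test. GJB6 and PANX2 passed in none, the signs of GJB5, GJB6 and PANX2 changed with the scaling, and GJB6 was left out by the filter on the dimmest 40% of probe sets. GJB5 passed only with each array centred on its median (-0.19), which shifts every gene of an array alike. The replicate number as a block left 7165 genes called against 7634 and the same 4 members. Same-numbered arrays did not consistently deviate together (r of -0.15, -0.04 and 0.13 over genes), so the numbers were not taken to pair the samples. Differently numbered arrays gave 0.16 for shControl replicate 1 with shTP63 replicate 2, and 0.16 for shControl 2 with shTP63 1. A pairing under other numbers was not tested. Of the other listed genes 31 rose and 22 fell, and 20 and 46 with each array centred on its median. Of the scaffold and turnover genes 10 were called at a threshold of 0.01, against 16. Signal near background limits what can be said of GJB6, PANX3 and P2RX7.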
